A study of Bos taurus with 20 samples.

Results

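Cold storage of untreated beef muscle was followed on 10 of the 20 arrays of a bovine gene expression study, 5 arrays of day 0 and 5 of day 14. These 10 are the neck muscle samples that the labels assign to control animals. The muscle came from 5 control cows, named K3, K6, K8, K9 and K10. By its number, each cow gave 1 sample at day 0 and 1 after 14 days under vacuum at 4 °C, so that the groups hold the same animals and the animal is the replicate. The remaining 10 arrays, used here only to set the storage change beside an independent group, came from 5 cows that received dexamethasone, a synthetic glucocorticoid, in oral doses of 0.4 mg per animal per day over 31 days, and estradiol, an oestrogen, as 6 weekly intramuscular doses of 5 mg per animal. Each sample was a piece of whole tissue. In such bulk samples fewer cells of a type and less RNA per cell cannot be told apart.

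The tissue carried markers of skeletal muscle at both days. All 14 of the muscle fibre markers found on the array were detected well enough to be tested, which takes 5 of the 10 arrays. CASQ1, a calsequestrin, was dim and well above background on 2 arrays of day 0 and 3 of day 14. MB, the oxygen-binding protein myoglobin, measured 18.22 ± 0.25 (SD, n = 5) at day 0 and 18.18 ± 0.19 at day 14. All array values here are log2 processed signals, a background-subtracted brightness per probe, shifted so that every array has the same 75th percentile. A change is therefore relative to the other probes of the same array, and a log2 difference of 1 is a 2-fold difference in signal. Values of different probes are not compared with each other, because probes differ in how brightly they bind.

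When blood supply stops, muscle cells lose oxygen, break glycogen down to lactate, run out of ATP and pass into rigor. During the following days proteases, among them the calpains, cut proteins of the Z-disc and of the links between sarcomeres, which is the basis of meat ageing. Transcription needs ATP and nucleotides, while messenger RNA goes on being broken down, and messenger RNAs differ in how long they last. An array of stored muscle reads what RNA is left after these processes, whatever the balance between them.

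Array signal was lower in every animal after storage. Before any centring, an array's 75th percentile stood at 657, 859, 936, 858 and 731 at day 0 in K3, K6, K8, K9 and K10, and 487, 278, 450, 402 and 534 in the same animals at day 14. The groups did not overlap, and K6 had the dimmest array of day 14. On the log2 scale the 75th percentile went from 9.65 ± 0.21 (SD, n = 5) to 8.71 ± 0.37, a difference of -0.93 in 5 of 5 animals (two-sided exact permutation p = 0.00794, the smallest this design allows; adjusted p = 0.0106 over 4 array measures). With signs turned within animals the smallest possible p is 0.0625, and this is what was found.

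Set against the RNA spiked into each labelling reaction, the 75th percentile lay 0.65 lower at day 14, at -2.67 ± 0.16 before and -3.32 ± 0.24 after storage (all 5 animals lower, exact permutation p = 0.00794 and adjusted p = 0.0106). K10 moved least, from -2.83 to -2.91. Spots well above background made up 66.1% ± 3.36 at day 0 and 62.2% ± 3.80 at day 14, with 4 animals of 5 lower (exact permutation p = 0.127). Within an array, the median spot came closer to the 75th percentile, the difference going from -3.24 ± 0.03 to -2.95 ± 0.10, with all 5 animals moving this way (exact permutation p = 0.00794 and adjusted p = 0.0106). The dim probes thus sat relatively higher at day 14. Because total signal fell, higher and lower below mean relative to the other probes of the same array.

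**Figure D1:**
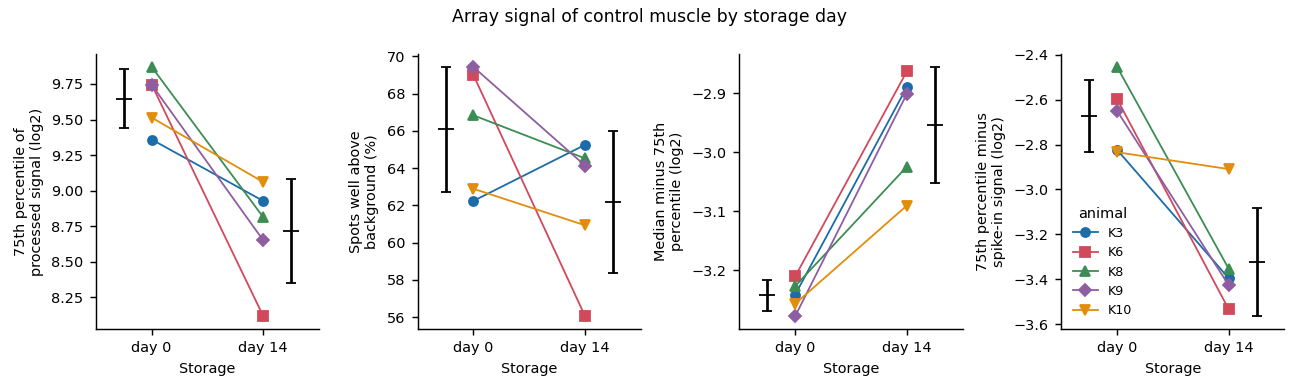
Signal measures of the 10 control arrays at day 0 and day 14, with 1 line per animal and black bars for the group mean ± SD (n = 5). The 75th percentile of signal and its distance from the spike-in signal fell in all 5 animals, K10 changing least against the spike-in, while the median spot moved towards the 75th percentile in all 5.

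K10 stood apart from the other animals by the size of its change. For each animal, probes were called from the other 4 animals and then read in the animal left out. Its change went the called way for 97.0% of 4360 probes in K3, 93.0% of 4536 in K6, 93.7% of 4177 in K8, 98.6% of 3313 in K9 and 77.3% of 6473 in K10. The median change in the called direction was 0.99 in K3, 1.10 in K6, 0.88 in K8 and 1.38 in K9, and 0.37 in K10, whose counterparts had a median of 1.03 for the same probes. The difference lay mostly in the day 14 sample of K10, which was 0.49 short of the other day 14 arrays in the called direction, while its day 0 sample already lay 0.12 in the called direction from the other day 0 arrays. Leaving K10 out raised the number of probes called, and leaving K9 out gave the lowest number.

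The arrays also came from 2 runs of slides with consecutive numbers, and these runs nearly followed the storage day. The first slide set, of slides 1 to 3, held the day 0 arrays of K3, K6, K8 and K9 and the day 14 array of K6. The second, of slides 4 to 6, held the day 0 array of K10 and the day 14 arrays of K3, K8, K9 and K10. K6 and K10 thus had both days in 1 set, while K3, K8 and K9 changed set between days. The part of slide set in the smaller change of K10 was not tested. The day 14 array of K6 and the day 0 array of K10 allow slide set to be put into the fit beside the day. This setting was chosen after the data were seen. Of the 5907 probes called, all 5907 then kept their sign and 4296 their call. Within the first set 99.3% and within the second 99.1% of called probes changed in the pooled direction. These probes were called from the same arrays, so such agreement follows largely from the calling and is no separate test. Of probes called at least 2-fold, 79 of 1485 that rose and 23 of 1108 that fell then dropped under 50% of their log2 value, and 226 and 139 lost their call. Several of the largest increases were among them and are described with the top genes at the end. With each slide as a fixed block, where slide 6 alone holds both days, 475 probes were higher and 179 lower, and 149 of the 175 calls of named genes ended. That setting is not repeated beside each gene.

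Of 14348 probes tested, 3210 rose (22.4%) and 2697 fell (18.8%) between day 0 and day 14 at an adjusted p under 0.05 in limma, a linear model with a spread shared across probes, with Benjamini-Hochberg adjustment over all of them. Taking the brightest probe of each named gene left 10595 genes, of which 2050 rose (19.3%) and 2157 fell (20.4%). These percentages are the background for every gene group below. Most genes named below were chosen by their change on these same arrays. Agreement of all animals and groups without overlap follow in part from that choice. Changes of at least 2-fold were called for 813 genes that rose and 866 that fell, and of at least 4-fold for 35 and 55. The median log2 fold change over all genes was 0.01, the 5th and 95th percentiles were -1.23 and 1.18, and the 1st and 99th were -1.82 and 1.72. Probes without a gene name were more often among the increases, with 891 of 2898 higher and 405 lower. With normexp, another background correction, the split was 4349 higher and 1550 lower, without a filter on dim probes it was 5884 and 2585, and centred on the spike-in signal it was 683 and 6692. The direction of a change in a dim gene could depend on the background correction, also where the change was large, as for EHHADH and HPRT1 below.

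**Figure D2:**
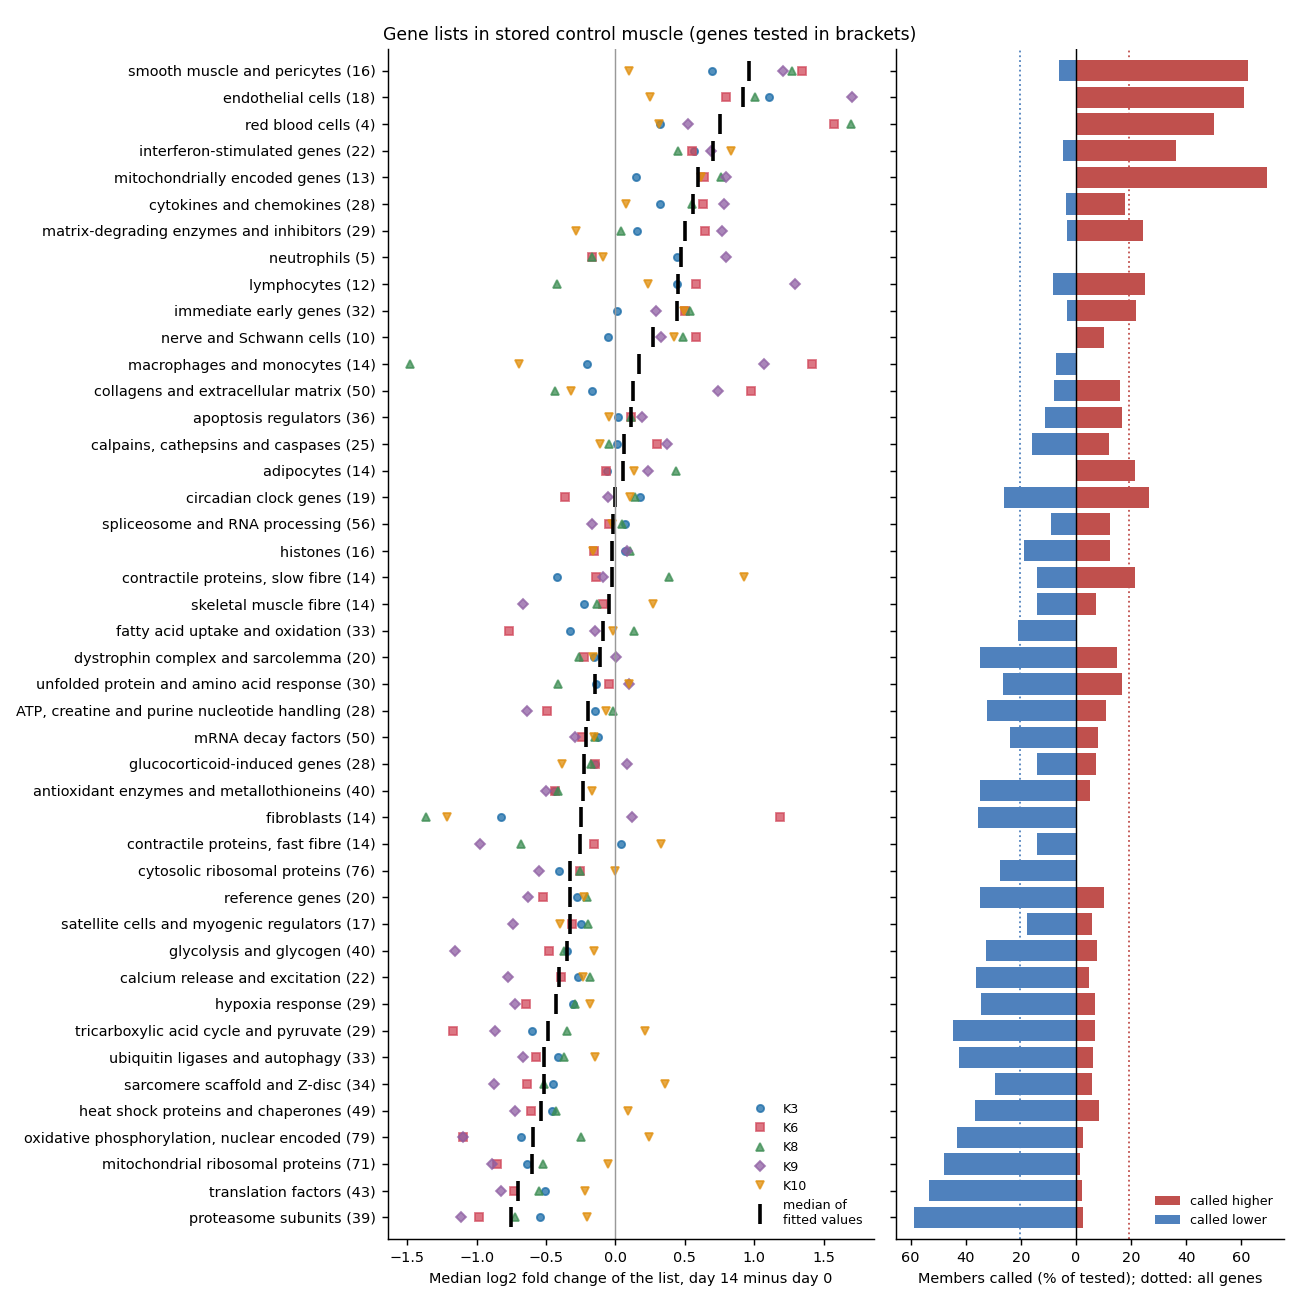
Median log2 fold change (day 14 minus day 0) of 44 gene lists in the control animals, with coloured points for the medians of single animals (left) and the percentage of tested members called lower and higher (right), dotted lines marking the 20.4% and 19.3% of all genes. Vessel cell lists and mitochondrially encoded genes lie to the right, and proteasome, translation, mitochondrial ribosome and nuclear oxidative phosphorylation lists to the left.

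The contractile machinery was affected unevenly, with decreases in genes of the Z-disc, the M-band and the membrane systems. Among sarcomere scaffold and Z-disc genes, of 34 tested, 10 fell and 2 rose, with a median log2 fold change of -0.51. By animal the list's median was -0.45 in K3, -0.64 in K6, -0.51 in K8, -0.88 in K9 and 0.36 in K10. Within the first slide set it was -0.35 and within the second -0.06. PDLIM3, a Z-disc protein that binds alpha-actinin, had the largest decrease of any gene named here and measured 14.07, 14.66, 14.89, 14.36 and 14.18 at day 0 and 11.11, 10.75, 11.51, 9.50 and 13.17 at day 14 in K3, K6, K8, K9 and K10, an order of animals kept for all values below. The groups did not overlap, K10 fell least and K9 most, and the change was 9.34-fold (log2 fold change -3.22 ± 0.53 SE, adjusted p = 0.00131, n = 5 per day). MYOM2, a myomesin that crosslinks thick filaments at the M-band, measured 11.19, 11.01, 10.44, 10.97 and 10.42 at day 0 and 8.19, 7.80, 9.53, 7.63 and 9.45 at day 14, again with no overlap (4.88-fold lower, log2 fold change -2.29 ± 0.38 SE, adjusted p = 0.00145). CAPZA2, a subunit of the protein that caps actin at the Z-disc, was 2.34-fold lower (log2 fold change -1.23 ± 0.25 SE, adjusted p = 0.00342). DES, desmin of the intermediate filaments around the Z-disc, was 2.05-fold lower (log2 fold change -1.04 ± 0.25 SE, adjusted p = 0.00705).

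Over both directions, the thick and thin filament lists had no larger share of members called than all genes. Of the fast fibre list, of 14 tested, 2 fell and 0 rose, with a median log2 fold change of -0.26, and of the slow fibre list, of 14 tested, 3 rose and 2 fell, with a median log2 fold change of -0.03. These are 14.3% lower for the fast list, and 21.4% higher and 14.3% lower for the slow list, against 19.3% higher and 20.4% lower for all genes. The fast list's median took the other sign inside each slide set, at 0.16 and 0.06, and that of the slow list turned in the authors' series table relative to all genes. ACTA1, skeletal alpha-actin, measured 17.64, 17.06, 17.18, 16.85 and 16.90 at day 0 and 16.09, 18.06, 17.19, 17.23 and 17.21 at day 14, with overlapping groups (log2 fold change 0.03 ± 0.31 SE, adjusted p = 0.944). ACTN3, the alpha-actinin of fast fibres, measured 16.64, 16.14, 15.68, 16.76 and 16.88 at day 0 and 16.00, 15.45, 13.89, 13.83 and 15.81 at day 14. ACTN3 fell in every animal although the groups overlapped, with K8 and K9 lowest after storage (log2 fold change -1.42 ± 0.45 SE, adjusted p = 0.0259). PFKM, the muscle phosphofructokinase counted with the fast list, is described with glycolysis. Of the slow isoforms, MYH7B, a slow type myosin heavy chain (log2 fold change 1.26 ± 0.37 SE, adjusted p = 0.0189), and TPM3, slow tropomyosin (log2 fold change 0.64 ± 0.19 SE, adjusted p = 0.0200), rose. ATP2A2, the calcium pump of slow fibres, also rose (log2 fold change 0.77 ± 0.22 SE, adjusted p = 0.0160). CASQ2, the calsequestrin of slow and cardiac fibres, fell (log2 fold change -1.15 ± 0.35 SE, adjusted p = 0.0217). MYH7, the main slow myosin heavy chain, had a log2 fold change of 0.41, adjusted p = 0.0953. In this and the preceding paragraph a call ended with the slide set in the fit for ACTN3 (adjusted p = 0.0790), ATP2A2 (adjusted p = 0.0665) and CASQ2 (adjusted p = 0.0886). The same held for MYH7B (adjusted p = 0.161). Without 1 animal it was lost for ACTN3 (K9, adjusted p = 0.124), ATP2A2 (K10, adjusted p = 0.0519) and CASQ2 (K3, K6, K8 or K9, adjusted p from 0.0589 to 0.0969). This was also so for MYH7B (K3, K8 or K9, adjusted p from 0.0579 to 0.0635) and TPM3 (K6, K8 or K10, adjusted p from 0.0512 to 0.0961). Normexp background correction ended it for ATP2A2 (adjusted p = 0.121), CASQ2 (adjusted p = 0.144) and TPM3 (adjusted p = 0.142). Other settings ended it for CASQ2 (all 20 arrays, 20 arrays with slide set).

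The giant structural proteins gave probes that disagreed. The brighter probe of TTN, titin, which spans from Z-disc to M-band, measured 10.73, 12.23, 11.89, 12.15 and 10.45 at day 0 and 14.74, 15.08, 13.00, 15.08 and 14.43 at day 14. Every day 14 array was above every day 0 array (7.88-fold higher, log2 fold change 2.98 ± 0.46 SE, adjusted p = 0.00106). The other TTN probe had a log2 fold change of -1.28 (adjusted p = 0.146), so the increase describes the stretch of RNA under the brighter probe only. MYH1, the fast 2X myosin heavy chain, stood at -0.05 (adjusted p = 0.867) by its brighter probe and at -1.63 (adjusted p = 0.0106) by the other. NEB, nebulin along the thin filament, had probes at -0.05, -0.35 and 1.58, none of which passed.

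Genes that link excitation to calcium release fell in several steps of the pathway. Among calcium release and excitation genes, of 22 tested, 8 fell and 1 rose, with a median log2 fold change of -0.41. RYR1, the calcium release channel of the sarcoplasmic reticulum, measured 12.63, 13.70, 13.06, 13.82 and 14.02 at day 0 and 11.56, 11.08, 11.92, 10.34 and 12.45 at day 14. The groups did not overlap and K9 had the largest loss (3.93-fold lower, log2 fold change -1.97 ± 0.39 SE, adjusted p = 0.00298). JPH2, a junctophilin that ties the T-tubule to the sarcoplasmic reticulum (3.43-fold lower, log2 fold change -1.78 ± 0.40 SE, adjusted p = 0.00543), fell without overlap. CLCN1, the muscle chloride channel (3.54-fold lower, log2 fold change -1.82 ± 0.37 SE, adjusted p = 0.00344), and CHRNB1, a subunit of the acetylcholine receptor of the neuromuscular junction (2.33-fold lower, log2 fold change -1.22 ± 0.26 SE, adjusted p = 0.00463), did the same. ATP2A1, the calcium pump of fast fibres, had a log2 fold change of -0.25, adjusted p = 0.541.

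In the dystrophin complex and sarcolemma list, of 20 tested, 7 fell and 3 rose, with a median log2 fold change of -0.11. The median of this list turned relative to all genes with quantile normalization. CAPN3, the muscle calpain held on titin, measured 9.83, 10.13, 9.41, 9.91 and 10.14 at day 0 and 8.45, 7.58, 8.22, 7.39 and 8.59 at day 14 and fell in all 5 animals without overlap (3.58-fold, log2 fold change -1.84 ± 0.26 SE, adjusted p = 0.000677). CAV3, the caveolin of muscle membrane (log2 fold change -1.58 ± 0.32 SE, adjusted p = 0.00346), SGCB, beta-sarcoglycan (log2 fold change -1.58 ± 0.29 SE, adjusted p = 0.00221), and DAG1, dystroglycan (log2 fold change -0.96 ± 0.22 SE, adjusted p = 0.00619), fell too. The array's own description calls the DAG1 probe RAB7, a name that RefSeq lists as a synonym of DAG1, and the probe was named here by its accession. For SGCB a second probe gave a log2 fold change of -1.53, close to the first.

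**Figure D3:**
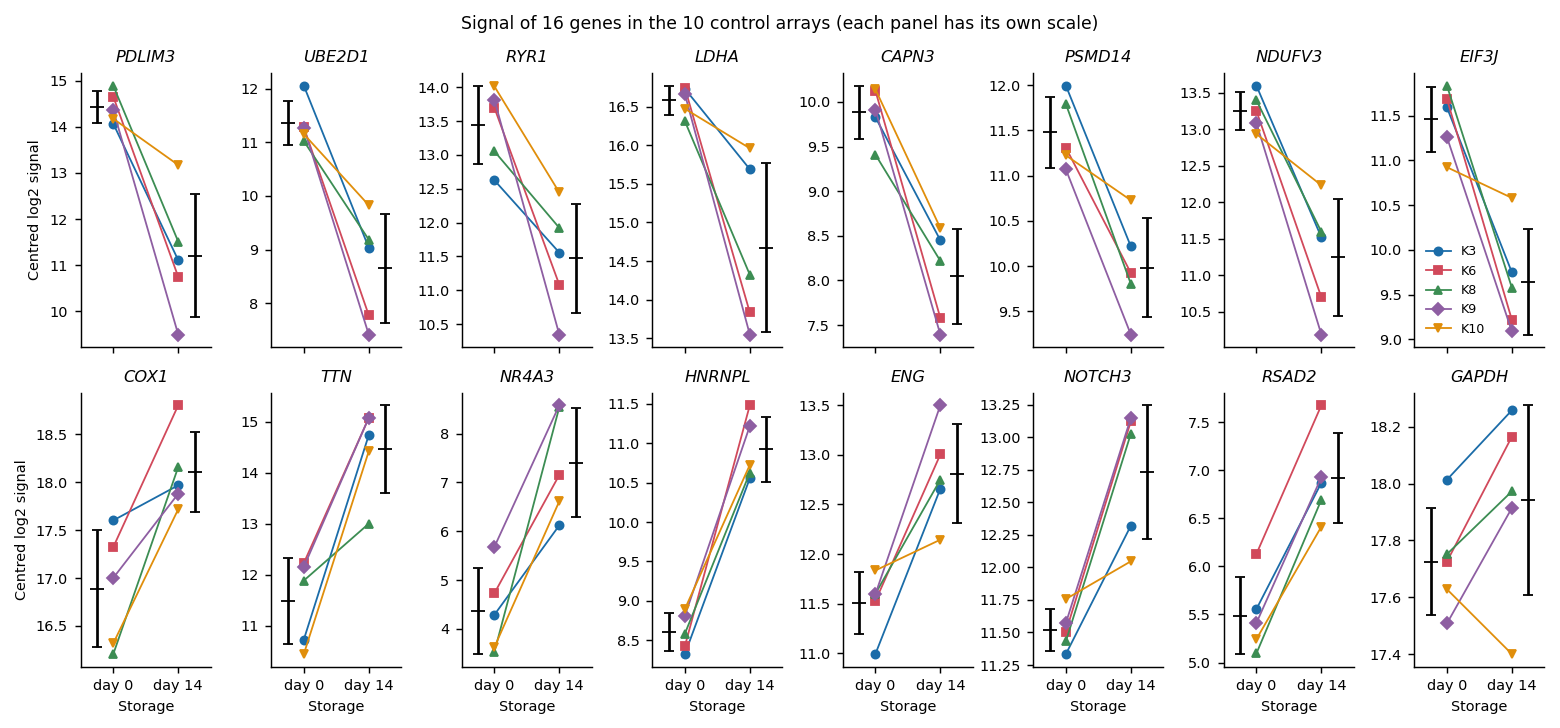
Centred log2 processed signal of 16 genes on each control array at day 0 and day 14, with 1 line per animal, black bars for the mean ± SD (n = 5) and a scale of its own for each gene. PDLIM3, RYR1, LDHA, CAPN3 and NDUFV3 fell in each animal and TTN, COX1, NR4A3, HNRNPL and ENG rose in each, whereas GAPDH overlapped between days.

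Enzymes and transporters of glycolysis and glycogen were lower at several points. Among these genes, of 40 tested, 13 fell and 3 rose, with a median log2 fold change of -0.35. SLC16A3, the lactate exporter of glycolytic fibres, measured 7.71, 7.76, 7.41, 7.73 and 7.74 at day 0 and 5.51, 4.14, 5.45, 4.99 and 6.57 at day 14. Day 0 values lay close together, every day 14 value was lower, and K6 was lowest (5.05-fold, log2 fold change -2.34 ± 0.35 SE, adjusted p = 0.000955). LDHA, which makes lactate from pyruvate, measured 16.74, 16.75, 16.32, 16.67 and 16.48 at day 0 and 15.69, 13.83, 14.32, 13.55 and 15.96 at day 14, with K10 and K3 least and K9 most reduced and no overlap (3.78-fold lower, log2 fold change -1.92 ± 0.43 SE, adjusted p = 0.00562). PFKM, which commits sugar to glycolysis, was 3.20-fold lower (log2 fold change -1.68 ± 0.36 SE, adjusted p = 0.00435), and PGK1, phosphoglycerate kinase, was 3.15-fold lower (log2 fold change -1.66 ± 0.34 SE, adjusted p = 0.00378).

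The glycogen genes followed different courses. UGP2, which makes the UDP-glucose used for glycogen, fell by 3.37-fold with no overlap (log2 fold change -1.75 ± 0.23 SE, adjusted p = 0.000554), as did PPP1R3A, the muscle subunit that directs protein phosphatase 1 to glycogen (3.50-fold, log2 fold change -1.81 ± 0.30 SE, adjusted p = 0.00147). PYGM, the muscle glycogen phosphorylase, was lower in 5 of 5 animals but did not pass (log2 fold change -0.36 ± 0.23 SE, adjusted p = 0.223). PYGB, the brain form of the same enzyme, rose from 9.51 ± 0.20 to 10.62 ± 0.31 (SD) without overlap (2.16-fold, log2 fold change 1.11 ± 0.18 SE, adjusted p = 0.00132).

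Genes of ATP, creatine and purine handling included losses and gains. Here, of 28 tested, 9 fell and 3 rose, with a median log2 fold change of -0.20. HPRT1, which salvages hypoxanthine, measured 5.0, 6.38, 6.02, 4.97 and 3.84 at day 0 and 3.15, 3.43, 2.39, 3.75 and 2.85 at day 14 and fell in all animals without overlap (log2 fold change -2.13 ± 0.44 SE, adjusted p = 0.00364). ADK, adenosine kinase, fell as well (log2 fold change -1.61 ± 0.31 SE, adjusted p = 0.00275), while ADA, adenosine deaminase, which converts adenosine to inosine, rose in 5 of 5 animals (log2 fold change 1.35 ± 0.30 SE, adjusted p = 0.00583). AMPD1, the muscle AMP deaminase, fell (log2 fold change -1.31 ± 0.35 SE, adjusted p = 0.0119), and so did CKM, muscle creatine kinase, which measured 16.60, 16.94, 16.44, 16.94 and 16.58 at day 0 and 16.13, 14.33, 16.24, 14.97 and 16.34 at day 14. It fell by 2.61 in K6 and 1.96 in K9, and by 0.20 to 0.47 in the other animals (log2 fold change -1.10 ± 0.37 SE, adjusted p = 0.0323). Calls of this and the 2 preceding paragraphs ended with the replicate block for CKM (adjusted p = 0.0568). With slide set in the fit it was lost for AMPD1 (adjusted p = 0.0600). Leaving out 1 animal ended it for AMPD1 (K9, adjusted p = 0.0683) and CKM (K3, K6 or K9, adjusted p from 0.0530 to 0.150). Under normexp it was lost for ADK (adjusted p = 0.0836), HPRT1 (log2 fold change 0.31, adjusted p = 0.556) and SLC16A3 (adjusted p = 0.0898). In other settings it was lost for CKM (the authors' series table) and TTN (mean of its probes).

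Many nuclear genes of the respiratory chain fell, while most of the mitochondrially encoded genes rose. Among nuclear genes of oxidative phosphorylation, of 79 tested, 34 fell (30 with the replicate block) and 2 rose (1 with it). The median log2 fold change was -0.59. By animal the median was -0.68 in K3, -1.10 in K6, -0.25 in K8, -1.09 in K9 and 0.24 in K10, so K10 went the other way, and it was -1.09 within the first and -0.15 within the second slide set. NDUFV3, an accessory subunit of complex I, measured 13.60, 13.25, 13.40, 13.09 and 12.94 at day 0 and 11.52, 10.70, 11.60, 10.19 and 12.23 at day 14, without overlap (4.02-fold lower, log2 fold change -2.01 ± 0.34 SE, adjusted p = 0.00147). NDUFB5 (log2 fold change -1.35 ± 0.28 SE, adjusted p = 0.00358) and NDUFB6 (log2 fold change -1.16 ± 0.24 SE, adjusted p = 0.00408), other subunits of complex I, and CYCS, cytochrome c (log2 fold change -1.14 ± 0.25 SE, adjusted p = 0.00476), fell in 5 of 5 animals. SDHA of complex II had a log2 fold change of -0.49, adjusted p = 0.0841.

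Of the mitochondrially encoded genes, of 13 tested, 9 rose (6 with the replicate block) and 0 fell. The median log2 fold change was 0.60. COX1, the catalytic subunit of cytochrome c oxidase, measured 17.60, 17.32, 16.21, 17.00 and 16.32 at day 0 and 17.97, 18.80, 18.16, 17.88 and 17.72 at day 14. All day 14 arrays were above all day 0 arrays, although by as little as 0.12 between the nearest of them (2.32-fold higher, log2 fold change 1.22 ± 0.30 SE, adjusted p = 0.00881). ND1 (log2 fold change 0.87 ± 0.17 SE, adjusted p = 0.00264), ND4L (log2 fold change 1.12 ± 0.24 SE, adjusted p = 0.00486) and ND2 (log2 fold change 0.60 ± 0.18 SE, adjusted p = 0.0229), subunits of complex I made inside the mitochondrion, rose in 5 of 5 animals. The list's median was 0.74 and 0.76 within the slide sets. Relative to the median of all genes it was 0.59, and 0.08 with normexp background correction.

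Of the tricarboxylic acid cycle and pyruvate genes 44.8% fell, and of the fatty acid genes 21.2%, against 20.4% of all genes. In the tricarboxylic acid cycle and pyruvate list, of 29 tested, 13 fell (10 with the replicate block) and 2 rose. The median log2 fold change was -0.49. DLD, the lipoamide dehydrogenase shared by several dehydrogenase complexes (log2 fold change -1.08 ± 0.27 SE, adjusted p = 0.00891), and MPC1, part of the carrier that brings pyruvate into mitochondria (log2 fold change -1.13 ± 0.28 SE, adjusted p = 0.00867), fell in 4 of 5 animals, K10 being the exception in both. PDHA1, of pyruvate dehydrogenase (log2 fold change 0.73 ± 0.15 SE, adjusted p = 0.00426), and IDH3B, of isocitrate dehydrogenase (log2 fold change 0.78 ± 0.15 SE, adjusted p = 0.00257), rose in all 5 without overlap. A second IDH3B probe of like brightness stood at 0.15 (adjusted p = 0.472).

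Among genes of fatty acid uptake and oxidation, of 33 tested, 7 fell and 0 rose, with a median log2 fold change of -0.09. EHHADH, the bifunctional enzyme of peroxisomal beta-oxidation, measured 5.78, 6.20, 5.88, 6.03 and 6.38 at day 0 and 3.37, 3.06, 3.05, 2.15 and 3.99 at day 14. At day 14 it was not well above background on any array. With this background subtraction the change was at least 5.99-fold (log2 fold change -2.93 ± 0.29 SE, adjusted p = 0.000240). ETFA, of the flavoprotein that passes electrons from fatty acid oxidation on to the respiratory chain, fell 4.02-fold (log2 fold change -2.01 ± 0.34 SE, adjusted p = 0.00164). ECI2 (log2 fold change -1.45 ± 0.30 SE, adjusted p = 0.00414) and DECR1 (log2 fold change -1.19 ± 0.28 SE, adjusted p = 0.00705), which handle unsaturated fatty acids, fell in 5 of 5 animals. FABP4, a fatty acid carrier of fat cells, spread widely at both days and had a log2 fold change of -0.29, adjusted p = 0.797. Among the genes of the last 4 paragraphs the call ended without 1 animal for DLD (K9, adjusted p = 0.0563) and ND2 (K8 or K9, adjusted p from 0.0719 to 0.119). With normexp background correction it ended for EHHADH (log2 fold change 0.03, adjusted p = 0.959) and ND2 (adjusted p = 0.222). Elsewhere it was lost for MPC1 (the authors' series table) and ND2 (all 20 arrays, 20 arrays with slide set).

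Translation genes fell far more often than they rose. Of translation factors, of 43 tested, 23 fell and 1 rose, with a median log2 fold change of -0.70, which is 53.5% lower against 20.4% of all genes. EIF3J, a loosely bound part of initiation factor 3, measured 11.59, 11.68, 11.83, 11.26 and 10.92 at day 0 and 9.75, 9.22, 9.58, 9.09 and 10.58 at day 14, with no overlap and the least change in K10 (3.52-fold lower, log2 fold change -1.82 ± 0.28 SE, adjusted p = 0.00107). EIF2S1, the alpha subunit of initiation factor 2 whose phosphorylation slows translation, was 2.63-fold lower (log2 fold change -1.40 ± 0.21 SE, adjusted p = 0.000900). BTF3, a subunit of the nascent chain complex that meets the growing peptide at the ribosome, was 2.55-fold lower (log2 fold change -1.35 ± 0.20 SE, adjusted p = 0.000931). EIF4H, a helper of the cap-binding helicase, was 4.00-fold lower (log2 fold change -2.0 ± 0.29 SE, adjusted p = 0.000795), against a log2 fold change of -0.11 in the treated animals (adjusted p = 0.925).

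Ribosomal protein genes had smaller median changes than translation factors. For cytosolic ribosomal proteins, of 76 tested, 21 fell (12 with the replicate block) and 0 rose, with a median log2 fold change of -0.33. The 27.6% that fell compare with 20.4% of all genes and 24.3% of the brightest quintile of genes by signal. For mitochondrial ribosomal proteins, of 71 tested, 34 fell (47.9%) and 1 rose, with a median log2 fold change of -0.60. RPS26 measured 14.29, 14.00, 14.07, 14.17 and 13.97 at day 0 and 12.36, 12.52, 12.63, 12.03 and 13.20 at day 14 and fell without overlap (2.93-fold, log2 fold change -1.55 ± 0.21 SE, adjusted p = 0.000555). RPL22 (log2 fold change -1.62 ± 0.26 SE, adjusted p = 0.00119), RPL30 (log2 fold change -1.23 ± 0.22 SE, adjusted p = 0.00197) and RPL39 (log2 fold change -0.93 ± 0.18 SE, adjusted p = 0.00250) fell in 5 of 5 animals. RPLP0, a stalk protein often used as a reference gene, fell by 1.33-fold (log2 fold change -0.42 ± 0.14 SE, adjusted p = 0.0362). Ribosomal protein genes have near-identical pseudogene copies that a probe may share, so single members are uncertain. Of the mitochondrial set, MRPL51 (log2 fold change -1.51 ± 0.24 SE, adjusted p = 0.00119), MRPL20 (log2 fold change -1.27 ± 0.22 SE, adjusted p = 0.00167) and MRPS21 (log2 fold change -1.08 ± 0.18 SE, adjusted p = 0.00140) fell. MRPS23 was at background on every day 14 array and, with this background subtraction, at least 2.36-fold lower (log2 fold change -1.89 ± 0.24 SE, adjusted p = 0.000507). Among translation genes the call ended with the replicate block for RPLP0 (adjusted p = 0.0894). Slide set in the fit ended it for RPLP0 (adjusted p = 0.0972). Dropping 1 animal removed it for RPLP0 (K3, K6, K8 or K9, adjusted p from 0.0806 to 0.159). Normexp background correction ended it for MRPS23 (log2 fold change 0.70, adjusted p = 0.166), RPL22 (adjusted p = 0.210) and RPLP0 (adjusted p = 0.0641). Other settings ended it for EIF4H (20 arrays with slide set) and RPLP0 (quantile normalization, another percentile, the authors' series table, no dim probe filter, scan session block, without the K6 day 14 array).

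The proteasome had the lowest median of all 44 lists. Among its subunits, of 39 tested, 23 fell and 1 rose, with a median log2 fold change of -0.75. The list's median was -0.54 in K3, -0.98 in K6, -0.72 in K8, -1.12 in K9 and -0.21 in K10. PSMD14, which removes ubiquitin from proteins entering the proteasome, measured 11.99, 11.31, 11.79, 11.07 and 11.22 at day 0 and 10.22, 9.92, 9.80, 9.24 and 10.73 at day 14, without overlap (2.82-fold lower, log2 fold change -1.50 ± 0.28 SE, adjusted p = 0.00229). PSMA1 (log2 fold change -1.49 ± 0.27 SE, adjusted p = 0.00198) and PSMA5 (log2 fold change -1.18 ± 0.21 SE, adjusted p = 0.00198), alpha subunits of the core, fell in 5 of 5 animals. PSMA7, also an alpha subunit, was the exception and measured 5.88, 6.07, 6.84, 6.87 and 6.26 at day 0 and 7.91, 7.68, 7.87, 8.44 and 8.18 at day 14, higher in 5 of 5 animals without overlap (3.10-fold, log2 fold change 1.63 ± 0.23 SE, adjusted p = 0.000729).

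In the list of ubiquitin ligases and autophagy, of 33 tested, 14 fell and 2 rose, with a median log2 fold change of -0.51. MAP1LC3B, which coats the autophagosome membrane, measured 14.11, 13.72, 13.82, 14.17 and 14.58 at day 0 and 12.16, 11.97, 12.33, 11.60 and 13.09 at day 14 (3.61-fold lower, log2 fold change -1.85 ± 0.27 SE, adjusted p = 0.000806). ATG12, which is coupled to ATG5 in autophagosome formation (log2 fold change -1.31 ± 0.24 SE, adjusted p = 0.00214), LAMP2, of the lysosomal membrane (log2 fold change -1.12 ± 0.20 SE, adjusted p = 0.00205), and UBB, a ubiquitin gene with near-identical repeats (log2 fold change -1.37 ± 0.20 SE, adjusted p = 0.000782), fell in all animals. A second LAMP2 probe stood at -0.46 (adjusted p = 0.583). UBE2D1, a ubiquitin-conjugating enzyme named for the size of its change, measured 12.05, 11.28, 11.02, 11.27 and 11.15 at day 0 and 9.03, 7.78, 9.18, 7.42 and 9.83 at day 14 (6.53-fold lower, log2 fold change -2.71 ± 0.42 SE, adjusted p = 0.00107). The muscle ligases that mark atrophy did not move together. TRIM63, which marks sarcomere proteins for breakdown, fell (log2 fold change -1.20 ± 0.31 SE, adjusted p = 0.0113), and FBXO32 had a log2 fold change of 0.21, adjusted p = 0.529.

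Of the proteases tied to meat ageing, CAPN3 fell, as did the calpain inhibitor, and the other calpains and cathepsins named did not pass. Over calpains, cathepsins and caspases, of 25 tested, 4 fell and 3 rose, with a median log2 fold change of 0.06, a median that turned relative to all genes with normexp. CAST, the inhibitor of calpains, measured 11.70, 11.77, 12.39, 11.61 and 11.79 at day 0 and 10.75, 10.99, 10.94, 10.98 and 11.67 at day 14. All 5 animals had the lower value at day 14, the K10 value of day 14 standing within the day 0 range (log2 fold change -0.79 ± 0.21 SE, adjusted p = 0.0127). CAPN1 measured 11.06, 11.39, 11.35, 11.47 and 11.16 at day 0 and 11.49, 11.16, 11.54, 11.29 and 11.65 at day 14, with overlapping groups (log2 fold change 0.14 ± 0.15 SE, adjusted p = 0.497). CAPN2, the other widely expressed calpain, stood at 0.09, adjusted p = 0.777, and the lysosomal proteases CTSB and CTSD at -0.14, adjusted p = 0.481 and 0.26, adjusted p = 0.149. CST3, which inhibits lysosomal cysteine proteases, fell (log2 fold change -0.83 ± 0.20 SE, adjusted p = 0.00726). CASP8, which starts caspase cascades from death receptors, rose from 4.31 ± 0.51 to 5.80 ± 0.37 (SD) in 5 of 5 animals (log2 fold change 1.49 ± 0.26 SE, adjusted p = 0.00177). Of the proteolysis genes a call ended without 1 animal for CAST (K8, adjusted p = 0.0614) and TRIM63 (K9, adjusted p = 0.0581). In other settings it was lost for LAMP2 (mean of its probes).

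Immediate early genes, which are switched on within minutes of a stimulus without new protein, rose about as often as genes at large, and 1 fell. Of these, of 32 tested, 7 rose (10 with the replicate block) and 1 fell (2 with it). The median log2 fold change was 0.45. The 21.9% that rose compare with 19.3% of all genes, and the 3.12% that fell with 20.4%. The median was 0.01 in K3, and relative to all genes it was 0.44, and 0.05 with normexp. NR4A3, an orphan nuclear receptor of this class, measured 4.29, 4.73, 3.52, 5.68 and 3.62 at day 0 and 6.12, 7.15, 8.54, 8.58 and 6.61 at day 14. All day 14 arrays were above all day 0 arrays (8.20-fold, log2 fold change 3.04 ± 0.54 SE, adjusted p = 0.00196), and the value was 3.22 ± 0.70 SE, adjusted p = 0.00751 with slide set in the fit. IER2 measured 11.15, 10.63, 10.40, 11.21 and 10.43 at day 0 and 11.93, 12.03, 12.12, 12.17 and 11.25 at day 14 (log2 fold change 1.14 ± 0.23 SE, adjusted p = 0.00366). EGR2 (log2 fold change 0.93 ± 0.23 SE, adjusted p = 0.00896) and ARC (log2 fold change 1.02 ± 0.26 SE, adjusted p = 0.0101) rose in 5 of 5 animals. The best known members did not pass. FOS measured 12.20, 11.41, 11.89, 10.79 and 9.42 at day 0 and 10.17, 10.92, 11.61, 10.33 and 11.69 at day 14, from highest in K3 to lowest in K10 at day 0 (log2 fold change -0.20 ± 0.50 SE, adjusted p = 0.774). EGR1 stood at 0.79, adjusted p = 0.199 and JUN, higher in 5 of 5 animals, at 0.43, adjusted p = 0.0906.

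Chaperones fell more often than they rose. Over heat shock proteins and chaperones, of 49 tested, 18 fell and 4 rose, with a median log2 fold change of -0.54. HSPA9, the mitochondrial member of the HSP70 family, fell from 8.27 ± 0.27 to 6.85 ± 0.39 (SD) in 5 of 5 animals (log2 fold change -1.41 ± 0.21 SE, adjusted p = 0.000924). CCT4 (log2 fold change -1.21 ± 0.20 SE, adjusted p = 0.00125) and CCT2 (log2 fold change -1.07 ± 0.20 SE, adjusted p = 0.00232), of the ring that folds actin and tubulin, fell too, and HSPA13 rose (log2 fold change 0.98 ± 0.17 SE, adjusted p = 0.00169). The abundant stress chaperones HSPB1 (0.04, adjusted p = 0.912), CRYAB (0.21, adjusted p = 0.688) and HSPA1A (-0.25, adjusted p = 0.429) did not pass by their brightest probes, and a dimmer probe of HSPA1A fell by 1.12 (adjusted p = 0.0254).

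Genes of the unfolded protein and amino acid response gave no common direction. In this list, of 30 tested, 8 fell (5 with the replicate block) and 5 rose, with a median log2 fold change of -0.15. The 26.7% that fell compare with 20.4% of all genes, and the 16.7% that rose with 19.3%. ATF4, the transcription factor that is translated when EIF2S1 is phosphorylated, measured 7.66, 7.15, 6.89, 6.95 and 7.29 at day 0 and 6.29, 4.22, 5.28, 5.09 and 6.46 at day 14, lower in all animals (3.30-fold, log2 fold change -1.72 ± 0.38 SE, adjusted p = 0.00520). DDIT3, a target of ATF4 that promotes cell death, measured 8.08, 8.83, 8.82, 8.65 and 8.25 at day 0 and 9.06, 10.13, 9.68, 9.57 and 9.52 at day 14, higher in all animals (2.09-fold, log2 fold change 1.06 ± 0.22 SE, adjusted p = 0.00430). EIF2AK4, the kinase that senses amino acid shortage, rose (log2 fold change 1.01 ± 0.21 SE, adjusted p = 0.00433), though 1 of its 3 probes stood at -0.29, and HERPUD1, of endoplasmic reticulum protein removal, fell (log2 fold change -0.72 ± 0.18 SE, adjusted p = 0.00998).

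Among hypoxia response genes, of 29 tested, 10 fell and 2 rose, with a median log2 fold change of -0.43. KDM3A, a histone demethylase induced by low oxygen, measured 4.0, 3.98, 4.30, 4.31 and 4.14 at day 0 and 5.47, 5.88, 5.69, 6.31 and 5.09 at day 14, rising in each animal (2.91-fold, log2 fold change 1.54 ± 0.21 SE, adjusted p = 0.000677). ANKRD37, another hypoxia-induced gene, fell (log2 fold change -1.37 ± 0.28 SE, adjusted p = 0.00346). ARNT, the partner of the hypoxia-inducible factors, fell by its brighter probe (log2 fold change -0.79 ± 0.14 SE, adjusted p = 0.00206) and rose by a dimmer one (1.05, adjusted p = 0.0160). HIF1A, the oxygen-regulated subunit itself, stood at 0.35, adjusted p = 0.148 and VEGFA, its target in vessel growth, at 0.17, adjusted p = 0.534.

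Antioxidant genes fell more often than they rose; of 40 tested, 14 fell and 2 rose, with a median log2 fold change of -0.23. GLRX2, a mitochondrial glutaredoxin, measured 9.81, 9.91, 10.09, 9.92 and 9.59 at day 0 and 7.72, 6.94, 7.64, 7.20 and 8.53 at day 14, without overlap (4.78-fold lower, log2 fold change -2.26 ± 0.26 SE, adjusted p = 0.000387). SOD1, the cytosolic superoxide dismutase (log2 fold change -1.41 ± 0.22 SE, adjusted p = 0.00105), PRDX4, a peroxiredoxin of the endoplasmic reticulum (log2 fold change -1.45 ± 0.22 SE, adjusted p = 0.00105), and SELENOW, a selenoprotein abundant in muscle (log2 fold change -1.23 ± 0.23 SE, adjusted p = 0.00230), fell in 5 of 5 animals. HMOX1, which breaks down haem, stood at 0.06, adjusted p = 0.878 and MT2A, a metallothionein, at 0.10, adjusted p = 0.899.

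Regulators of cell death were called less often than genes at large. Here, of 36 tested, 6 rose and 4 fell, with a median log2 fold change of 0.11. The 16.7% that rose compare with 19.3% of all genes, and the 11.1% that fell with 20.4%. RIPK3, the kinase of necroptosis, measured 7.80, 7.15, 7.10, 6.98 and 7.13 at day 0 and 8.98, 8.67, 8.16, 9.58 and 7.93 at day 14, higher in all animals and without overlap (log2 fold change 1.43 ± 0.30 SE, adjusted p = 0.00395). MCL1 (log2 fold change 0.57 ± 0.15 SE, adjusted p = 0.0103) and BCL2L2 (log2 fold change 0.83 ± 0.21 SE, adjusted p = 0.00963), which hold back apoptosis, rose in 5 of 5 animals.

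Clock and glucocorticoid-induced genes gave no common direction. In the clock list, of 19 tested, 5 rose (3 with the replicate block) and 5 fell, with a median log2 fold change of 0.00. NFIL3, a repressor of clock output, measured 5.63, 6.55, 6.07, 6.03 and 6.20 at day 0 and 4.03, 3.70, 5.01, 4.02 and 4.67 at day 14 (log2 fold change -1.81 ± 0.26 SE, adjusted p = 0.000795). HLF, an activator of the same targets, fell by its brightest probe (log2 fold change -1.41 ± 0.28 SE, adjusted p = 0.00321) but rose by the dimmest of 3 (0.88, adjusted p = 0.0320). BHLHE41, which represses the core clock, fell (log2 fold change -1.47 ± 0.31 SE, adjusted p = 0.00407), and CSNK1E, a kinase of the period proteins, rose (log2 fold change 0.92 ± 0.16 SE, adjusted p = 0.00169). Among glucocorticoid-induced genes, of 28 tested, 4 fell and 2 rose, with a median log2 fold change of -0.23. TSC22D3 (log2 fold change -1.01 ± 0.34 SE, adjusted p = 0.0330) and KLF9 (log2 fold change -0.59 ± 0.19 SE, adjusted p = 0.0302), direct targets of the receptor, fell. SESN1 rose (log2 fold change 1.48 ± 0.27 SE, adjusted p = 0.00204) and DDIT4 stood at -0.43, adjusted p = 0.298. Over the stress, death and clock genes above, the call ended with the slide set in the fit for ARC (adjusted p = 0.0503). Without 1 animal it was lost for ARC (K8 or K9, adjusted p from 0.0534 to 0.0635), BCL2L2 (K9, adjusted p = 0.0556) and HERPUD1 (K9, adjusted p = 0.0548). Others were KLF9 (K3, K8, K9 or K10, adjusted p from 0.0619 to 0.0883), MCL1 (K9, adjusted p = 0.0521) and TSC22D3 (K3, K6, K8 or K10, adjusted p from 0.0631 to 0.138). Under normexp it was lost for ANKRD37 (adjusted p = 0.0593), ARNT (log2 fold change 0.11, adjusted p = 0.759) and ATF4 (adjusted p = 0.715). Also lost were HSPA9 (adjusted p = 0.0845), MCL1 (adjusted p = 0.247) and NFIL3 (log2 fold change 0.12, adjusted p = 0.799). It ended likewise for TSC22D3 (log2 fold change 0.74, adjusted p = 0.120). Elsewhere it was lost for ARC (20 arrays with slide set), HLF (mean of its probes), IER2 (20 arrays with slide set) and KLF9 (quantile normalization, the authors' series table, without the K6 day 14 array). Further such genes were MCL1 (all 20 arrays, 20 arrays with slide set) and TSC22D3 (without the K6 day 14 array).

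Single genes of RNA handling changed in both directions. Over the spliceosome list, of 56 tested, 7 rose and 5 fell, with a median log2 fold change of -0.02, a median that turned under quantile normalization and in the series table. Of its members 12.5% rose and 8.93% fell, less than the 19.3% and 20.4% of all genes. HNRNPL, a regulator of splicing, measured 8.32, 8.42, 8.58, 8.81 and 8.90 at day 0 and 10.56, 11.48, 10.63, 11.22 and 10.73 at day 14 by its brighter probe. Day 0 and day 14 arrays were far apart in every animal (4.97-fold higher, log2 fold change 2.31 ± 0.21 SE, adjusted p = 0.000239), but the other probe stood at 0.19 (adjusted p = 0.406). SRSF5 rose (log2 fold change 1.10 ± 0.17 SE, adjusted p = 0.000970) and SRSF3 fell (log2 fold change -0.93 ± 0.16 SE, adjusted p = 0.00149), both splicing factors of the serine- and arginine-rich family. SNRPC, of the U1 particle, fell (log2 fold change -0.99 ± 0.21 SE, adjusted p = 0.00459).

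Among mRNA decay factors, of 50 tested, 12 fell and 4 rose, with a median log2 fold change of -0.21. That is 24% lower and 8% higher, against 20.4% and 19.3% of all genes. XRN1, the main exonuclease that digests decapped mRNA, measured 5.34, 5.78, 5.52, 5.69 and 4.49 at day 0 and 3.76, 3.69, 3.27, 2.45 and 4.29 at day 14. XRN1 was at background on all day 14 arrays and, with this background subtraction, at least 3.28-fold lower (log2 fold change -1.87 ± 0.34 SE, adjusted p = 0.00209). CNOT7, a deadenylase (log2 fold change -0.90 ± 0.19 SE, adjusted p = 0.00451), and LSM6, of the decapping ring (log2 fold change -0.89 ± 0.17 SE, adjusted p = 0.00277), fell. Of histone genes, of 16 tested, 3 fell and 2 rose, with a median log2 fold change of -0.02, and the sign of this median also turned in the same 2 scalings. H2AZ2, a variant histone, was at background at day 14 and, with this background subtraction, at least 3.40-fold lower (log2 fold change -1.77 ± 0.34 SE, adjusted p = 0.00265). H2AZ1 (log2 fold change -0.79 ± 0.24 SE, adjusted p = 0.0225) and H2BC21 (log2 fold change -0.80 ± 0.23 SE, adjusted p = 0.0178) fell and the linker histone H1-10 rose (log2 fold change 0.95 ± 0.22 SE, adjusted p = 0.00629). Histone genes are near copies of each other, so their probes may read several. For RNA-handling genes the call ended with the slide set in the fit for H2BC21 (adjusted p = 0.0998). Leaving out 1 animal ended it for H2AZ1 (K8 or K9, adjusted p from 0.0695 to 0.0938) and H2BC21 (K3, K6 or K9, adjusted p from 0.0588 to 0.0713). With normexp background correction it ended for H2AZ1 (log2 fold change 0.09, adjusted p = 0.786), H2AZ2 (log2 fold change 0.24, adjusted p = 0.630) and SRSF3 (log2 fold change 0.14, adjusted p = 0.722). The same held for XRN1 (log2 fold change 0.52, adjusted p = 0.261). Other settings ended it for H2BC21 (20 arrays with slide set).

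Interferon-stimulated genes rose more often than they fell. Of this list, of 22 tested, 8 rose (11 with the replicate block) and 1 fell. The median log2 fold change was 0.70, and 13 of the 35 members on the array were too dim to be tested. RSAD2, an antiviral enzyme induced by interferon, measured 5.56, 6.13, 5.09, 5.41 and 5.24 at day 0 and 6.87, 7.68, 6.69, 6.93 and 6.41 at day 14, and every animal rose by at least 1.17 (2.69-fold, log2 fold change 1.43 ± 0.26 SE, adjusted p = 0.00201). PSMB8 (log2 fold change 1.19 ± 0.19 SE, adjusted p = 0.00118) and PSMB9 (log2 fold change 0.97 ± 0.21 SE, adjusted p = 0.00460), which are among the catalytic subunits of the immunoproteasome, rose in 5 of 5 animals, whereas 23 of the 39 proteasome subunits fell. XAF1, which promotes apoptosis, measured 8.33, 8.64, 7.88, 8.13 and 7.66 at day 0 and 8.90, 9.77, 9.01, 9.14 and 8.94 at day 14 (log2 fold change 1.02 ± 0.23 SE, adjusted p = 0.00555). The list's median was 0.89 within the first and 0.88 within the second slide set.

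Over cytokines and chemokines, of 28 tested, 5 rose and 1 fell, with a median log2 fold change of 0.56. The 17.9% that rose compare with 19.3% of all genes, and the 3.57% that fell with 20.4%. TNFSF10, the death ligand TRAIL, measured 7.72, 8.21, 6.74, 7.74 and 7.08 at day 0 and 9.06, 9.17, 9.13, 9.15 and 8.38 at day 14 and rose without overlap (2.79-fold, log2 fold change 1.48 ± 0.28 SE, adjusted p = 0.00240). CCL3, a chemokine of macrophages (log2 fold change 1.0 ± 0.23 SE, adjusted p = 0.00634), CSF1, the macrophage growth factor (log2 fold change 0.87 ± 0.19 SE, adjusted p = 0.00504), and TGFB1 (log2 fold change 0.78 ± 0.20 SE, adjusted p = 0.0116) rose in 5 of 5 animals. In the treated animals CSF1 stood at 0.00 (adjusted p = 0.999).

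Most genes of blood vessels rose in relative signal. Among endothelial markers, of 18 tested, 11 rose (9 with the replicate block) and 0 fell. The median log2 fold change was 0.92, and all 18 had values above 0. ENG, endoglin, a co-receptor on vessel lining, measured 10.99, 11.52, 11.60, 11.59 and 11.83 at day 0 and 12.66, 13.00, 12.75, 13.50 and 12.14 at day 14, with no overlap and K9 highest (2.47-fold, log2 fold change 1.30 ± 0.25 SE, adjusted p = 0.00257). ROBO4 (log2 fold change 1.43 ± 0.31 SE, adjusted p = 0.00506), EGFL7 (log2 fold change 1.25 ± 0.26 SE, adjusted p = 0.00364) and TIE1 (log2 fold change 1.17 ± 0.26 SE, adjusted p = 0.00574), all known from endothelium, rose in 5 of 5 animals. PECAM1, an adhesion protein between endothelial cells, rose in 4 of 5 (log2 fold change 0.89 ± 0.30 SE, adjusted p = 0.0355). By animal the list's median was 1.11 in K3, 0.80 in K6, 1.0 in K8, 1.70 in K9 and 0.25 in K10.

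Among smooth muscle and pericyte markers, of 16 tested, 10 rose (13 with the replicate block) and 1 fell. The median log2 fold change was 0.96. DES, which skeletal fibres share, was the 1 member that fell. NOTCH3, the Notch receptor of mural cells, measured 11.33, 11.51, 11.43, 11.57 and 11.76 at day 0 and 12.32, 13.12, 13.03, 13.15 and 12.05 at day 14, without overlap (2.32-fold higher, log2 fold change 1.21 ± 0.23 SE, adjusted p = 0.00264). TAGLN, an actin-binding protein of smooth muscle (log2 fold change 1.30 ± 0.33 SE, adjusted p = 0.0101), and ABCC9, a potassium channel subunit counted with this list (log2 fold change 1.10 ± 0.23 SE, adjusted p = 0.00427), rose in 5 of 5 animals. The array describes this ABCC9 probe as transcript variant SUR2A. A second ABCC9 probe stood at 0.17 (adjusted p = 0.477). In the basement membrane, COL4A2 (log2 fold change 1.34 ± 0.28 SE, adjusted p = 0.00416) and HSPG2, perlecan (log2 fold change 1.35 ± 0.21 SE, adjusted p = 0.00100), rose, though a dimmer HSPG2 probe stood at 0.41 (adjusted p = 0.419).

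Fibroblast genes and fibrillar collagens went different ways in different animals. In the collagen and extracellular matrix list, of 50 tested, 8 rose and 4 fell, with a median log2 fold change of 0.13, with normexp turning the sign, and in the fibroblast list, of 14 tested, 5 fell (3 with the replicate block) and 0 rose, with a median log2 fold change of -0.25. The fibroblast median was -0.82 in K3, 1.18 in K6, -1.37 in K8, 0.12 in K9 and -1.21 in K10. COL1A1, of type I collagen, measured 13.17, 12.91, 13.74, 13.06 and 13.63 at day 0 and 12.57, 15.02, 12.98, 12.64 and 12.18 at day 14, the K6 sample of day 14 standing highest and the other 4 animals falling (log2 fold change -0.22 ± 0.45 SE, adjusted p = 0.719). COL3A1 stood at -0.17, adjusted p = 0.765. 4 genes fell in all animals except K6. They were the small proteoglycans DCN, decorin (log2 fold change -1.10 ± 0.30 SE, adjusted p = 0.0148), and LUM, lumican (log2 fold change -1.26 ± 0.38 SE, adjusted p = 0.0205). The others were MFAP5, of the elastic microfibril (log2 fold change -1.48 ± 0.34 SE, adjusted p = 0.00625), and PDGFRA, the growth factor receptor of fibroblasts (log2 fold change -0.74 ± 0.21 SE, adjusted p = 0.0185). Dimmer probes of DCN (-0.46, adjusted p = 0.149) and PDGFRA (-0.07, adjusted p = 0.858) did not pass. Among matrix-degrading enzymes and inhibitors, of 29 tested, 7 rose and 1 fell, with a median log2 fold change of 0.50. That is 24.1% higher and 3.45% lower, against 19.3% and 20.4% of all genes. ADAM10, a sheddase (log2 fold change 0.81 ± 0.18 SE, adjusted p = 0.00502), and ADAMTS10 (log2 fold change 0.96 ± 0.23 SE, adjusted p = 0.00720) were higher. So were MMP15, a metalloproteinase of the cell membrane (log2 fold change 0.70 ± 0.18 SE, adjusted p = 0.0107), and TIMP4, an inhibitor of such enzymes (log2 fold change 1.10 ± 0.33 SE, adjusted p = 0.0206).

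Markers of other cell types gave few calls. For macrophages and monocytes, of 14 tested, 1 fell and 0 rose, with a median log2 fold change of 0.17, MRC1, the mannose receptor, being the 1 called (log2 fold change -1.28 ± 0.42 SE, adjusted p = 0.0303). Their median was -0.21 in K3, 1.42 in K6, -1.48 in K8, 1.07 in K9 and -0.69 in K10. For lymphocytes, of 12 tested, 3 rose and 1 fell, with a median log2 fold change of 0.45. Their 25% higher and 8.33% lower compare with 19.3% and 20.4% of all genes. CD79A of B cells (log2 fold change 1.05 ± 0.30 SE, adjusted p = 0.0173), CD2 of T cells (log2 fold change 0.83 ± 0.23 SE, adjusted p = 0.0157) and NKG7 of cytotoxic cells (log2 fold change 0.70 ± 0.17 SE, adjusted p = 0.00859) were higher. ZAP70, a kinase of T cell signalling, was at background at day 14 and, with this background subtraction, at least 1.79-fold lower (log2 fold change -0.84 ± 0.22 SE, adjusted p = 0.0123). For neutrophils, of 5 tested, 0 rose and 0 fell, with a median log2 fold change of 0.47. For adipocytes, of 14 tested, 3 rose and 0 fell, with a median log2 fold change of 0.05. Their 21.4% higher is near the 19.3% of all genes. ACACA (log2 fold change 0.80 ± 0.14 SE, adjusted p = 0.00191) and FASN (log2 fold change 0.75 ± 0.19 SE, adjusted p = 0.0101), enzymes of fatty acid synthesis, were higher, as was PPARG, the fat cell regulator (log2 fold change 1.06 ± 0.27 SE, adjusted p = 0.0106). For nerve and Schwann cells, of 10 tested, 1 rose and 0 fell, with a median log2 fold change of 0.27, namely MBP of myelin (log2 fold change 0.86 ± 0.28 SE, adjusted p = 0.0294). The part that different cell content of the pieces played in these changes was not tested.

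For satellite cells and myogenic regulators, of 17 tested, 3 fell (5 with the replicate block) and 1 rose, with a median log2 fold change of -0.33. MEF2C and MEF2D, related transcription factors of muscle, went opposite ways. MEF2C measured 8.59, 9.19, 9.16, 9.22 and 8.93 at day 0 and 10.97, 11.65, 10.36, 10.13 and 11.08 at day 14, higher in all animals (3.53-fold, log2 fold change 1.82 ± 0.27 SE, adjusted p = 0.000924). MEF2D measured 11.74, 12.13, 12.08, 12.30 and 11.78 at day 0 and 10.98, 10.96, 11.29, 9.46 and 10.87 at day 14, lower in all animals (log2 fold change -1.29 ± 0.31 SE, adjusted p = 0.00708), while its dimmer probe stood at -0.39 (adjusted p = 0.404). MSTN, myostatin, which limits muscle growth, measured 7.96, 7.55, 6.55, 7.53 and 8.09 at day 0 and 7.83, 6.75, 2.30, 3.18 and 6.99 at day 14. Each of the 5 animals had the lower value after storage, by changes of -4.24 in K8 and -4.34 in K9 and from -1.10 to -0.13 in the others, and did not pass (log2 fold change -2.12 ± 0.96 SE, adjusted p = 0.0957) except with the replicate block (adjusted p = 0.0391). For vessel, matrix, immune and other cell type genes, and the interferon genes before them, the call ended with the replicate block for PDGFRA (adjusted p = 0.0540) and PECAM1 (adjusted p = 0.0613). The slide set fit removed it for CD2 (adjusted p = 0.0602), CD79A (adjusted p = 0.139) and DCN (adjusted p = 0.0539). This was also so for LUM (adjusted p = 0.191), MBP (adjusted p = 0.253) and MRC1 (adjusted p = 0.178). Others were PDGFRA (adjusted p = 0.0929), PECAM1 (adjusted p = 0.178) and PPARG (adjusted p = 0.0585). Also lost were TGFB1 (adjusted p = 0.0642) and TIMP4 (adjusted p = 0.0784). Dropping 1 animal removed it for CD2 (K6, K8 or K9, adjusted p from 0.0512 to 0.0795), CD79A (K3, K8 or K9, adjusted p from 0.0639 to 0.0880) and DCN (K3, K8 or K10, adjusted p from 0.0526 to 0.0708). It ended likewise for LUM (K3 or K8, adjusted p from 0.0832 to 0.0982), MBP (K3, K8 or K9, adjusted p from 0.0540 to 0.136) and MRC1 (K6 or K9, adjusted p from 0.0638 to 0.113). Further such genes were NKG7 (K9, adjusted p = 0.0547), PDGFRA (K3, K8 or K10, adjusted p from 0.0629 to 0.0845) and PECAM1 (K3, K8 or K9, adjusted p from 0.118 to 0.163). The same held for PPARG (K8, adjusted p = 0.0592), TGFB1 (K3 or K9, adjusted p from 0.0617 to 0.0638) and TIMP4 (K9, adjusted p = 0.0584). This was also so for ZAP70 (K8, adjusted p = 0.0621). Normexp background correction ended it for FASN (adjusted p = 0.0621), MMP15 (adjusted p = 0.0539) and MRC1 (adjusted p = 0.0501). Others were PDGFRA (adjusted p = 0.0669) and ZAP70 (log2 fold change 0.82, adjusted p = 0.0903). In other settings it was lost for CD2 (quantile normalization, the authors' series table, 20 arrays with slide set), CD79A (20 arrays with slide set), CSF1 (all 20 arrays, 20 arrays with slide set) and LUM (20 arrays with slide set). Also lost were MBP (quantile normalization, the authors' series table, 20 arrays with slide set), MEF2D (the authors' series table), MMP15 (all 20 arrays) and MRC1 (scan session block). It ended likewise for NKG7 (20 arrays with slide set), PDGFRA (all 20 arrays, mean of its probes), PECAM1 (scan session block, 20 arrays with slide set) and TGFB1 (the authors' series table). Further such genes were ZAP70 (20 arrays with slide set).

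Several reference genes used to scale other assays changed on this scale. Of this list, of 20 tested, 7 fell (4 with the replicate block) and 2 rose (1 with it), with a median log2 fold change of -0.33. The 35% that fell compare with 20.4% of all genes, and the 10% that rose with 19.3%. HPRT1, PGK1 and RPLP0 from above belong to this list. GAPDH measured 18.01, 17.73, 17.75, 17.51 and 17.63 at day 0 and 18.26, 18.17, 17.97, 17.91 and 17.40 at day 14 by its brightest probe, with overlapping groups (log2 fold change 0.22 ± 0.18 SE, adjusted p = 0.367), but its 3 probes stood at 0.22, -0.26 and -1.77, the last with an adjusted p of 0.00343. ACTB, cytoplasmic actin (log2 fold change 0.75 ± 0.19 SE, adjusted p = 0.0108), and YWHAZ (log2 fold change 0.85 ± 0.29 SE, adjusted p = 0.0354) rose. EEF1A2 (log2 fold change -1.14 ± 0.25 SE, adjusted p = 0.00506) and UXT (log2 fold change -0.72 ± 0.18 SE, adjusted p = 0.0106) fell. B2M (-0.16, adjusted p = 0.517), PPIA (0.32, adjusted p = 0.292) and TBP (-0.19, adjusted p = 0.333) did not pass. Of the 795 genes with more than 1 tested probe, 185 had at least 2 probes called, and in 46 of these the called probes went opposite ways. For reference genes the call ended with the replicate block for YWHAZ (adjusted p = 0.0578). Without 1 animal it was lost for ACTB (K9, adjusted p = 0.0501), UXT (K9, adjusted p = 0.0589) and YWHAZ (K3, K6, K8 or K9, adjusted p from 0.0794 to 0.137). Elsewhere it was lost for YWHAZ (quantile normalization, the authors' series table, without the K6 day 14 array).

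Among the 12 genes with the largest decreases, PDLIM3, UBE2D1 and SLC16A3 were described above. IMMP2L, a mitochondrial inner membrane peptidase, measured 7.92, 8.58, 8.54, 8.13 and 6.86 at day 0 and 4.13, 3.86, 5.88, 4.47 and 7.01 at day 14, lower in 4 of 5 animals with K10 level (7.66-fold, log2 fold change -2.94 ± 0.57 SE, adjusted p = 0.00291). 7 more, chosen like the others for the size of a called decrease, fell in 5 of 5 animals without overlap. They were CMBL, a hydrolase (log2 fold change -2.57 ± 0.42 SE, adjusted p = 0.00132), EPDR1 (log2 fold change -2.52 ± 0.42 SE, adjusted p = 0.00147) and SEMA4D, a semaphorin (log2 fold change -2.39 ± 0.38 SE, adjusted p = 0.00116). Next came DMAC2, an assembly factor of the respiratory chain (log2 fold change -2.36 ± 0.40 SE, adjusted p = 0.00147), and RCSD1 (log2 fold change -2.35 ± 0.36 SE, adjusted p = 0.00100). SMYD2, a lysine methyltransferase (log2 fold change -2.33 ± 0.46 SE, adjusted p = 0.00310), and PLEK, pleckstrin of blood cells (log2 fold change -2.34 ± 0.57 SE, adjusted p = 0.00841), completed the set. CFB, complement factor B, measured 8.37, 6.47, 9.84, 8.33 and 12.35 at day 0 and 6.42, 6.82, 6.15, 6.68 and 7.27 at day 14, with changes from 0.35 in K6 to -5.08 in K10 (log2 fold change -2.40 ± 0.84 SE, adjusted p = 0.0387). With slide set in the fit, all 12 stayed called, at values from -3.58 for CFB to -2.36 for PLEK.

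The 12 largest increases divided by slide set. NR4A3, TTN, NACC2 and RFX1 kept their size when slide set entered the fit, NACC2 with a slightly smaller and the others with a larger value. NACC2, a nuclear protein, measured 2.52, 3.85, 4.45, 4.52 and 3.87 at day 0 and 6.99, 6.53, 6.85, 7.16 and 6.80 at day 14 (8.13-fold higher, log2 fold change 3.02 ± 0.33 SE, adjusted p = 0.000370). It was 2.89 ± 0.42 SE, adjusted p = 0.00179 with slide set in the fit. RFX1, a transcription factor, measured 4.31, 4.58, 4.37, 4.51 and 3.16 at day 0 and 7.17, 6.93, 6.59, 6.14 and 6.10 at day 14 (log2 fold change 2.40 ± 0.30 SE, adjusted p = 0.000466, and 2.91 ± 0.29 SE, adjusted p = 0.000673 with slide set in the fit).

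In the other 8 genes the K10 array of day 0 was high and the K6 array of day 14 was low, so that signal followed the slide set at least as closely as the day. DMBX1, a homeobox gene of the brain, measured 5.76, 5.31, 5.23, 5.35 and 8.58 at day 0 and 9.99, 6.38, 9.42, 10.23 and 8.91 at day 14. Its log2 fold change was 2.94 ± 0.79 SE (adjusted p = 0.0130) by day alone and 1.01 ± 0.31 SE, adjusted p = 0.0276 with slide set in the fit. HBA, alpha globin of red blood cells, whose near-identical copies the probe cannot separate, measured 11.55, 11.37, 11.05, 11.25 and 14.15 at day 0 and 15.14, 13.04, 14.73, 15.53 and 14.31 at day 14. Its change was 2.68 ± 0.61 SE (adjusted p = 0.00599) by day alone, 1.26 ± 0.32 SE, adjusted p = 0.0133 with slide set, and 1.73 within the first and 0.78 within the second slide set.

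LHX1, OLIG1, SDK1, IL36A, FBXL19 and ALDH3A1 had the same pattern. By day alone their log2 fold changes were 2.60, 2.54, 2.76, 2.55, 2.39 and 2.34, and with slide set in the fit 0.62, 1.10, 1.18, 0.69, 0.52 and 0.36, of which SDK1 alone still passed (adjusted p = 0.0391). In a fit of all 20 arrays with slide set, DMBX1 and HBA did not pass either (adjusted p = 0.129 and 0.108), and SDK1 did (adjusted p = 0.0215). Over all probes called at least 4-fold higher, 15 of 159 fell to under 50% of their log2 value with slide set in the fit, against 0 of 70 called at least 4-fold lower, while among 2-fold changes both directions were affected, as given above. AHSP, the chaperone of alpha globin, rose by 0.70 (adjusted p = 0.0324) with no such pattern, and all 4 red blood cell genes tested stood above 0 (median 0.75, 2 called). For genes of these last 4 paragraphs the call ended with the replicate block for IL36A (adjusted p = 0.0629). With slide set in the fit it was lost for ALDH3A1 (adjusted p = 0.431), FBXL19 (adjusted p = 0.181) and IL36A (adjusted p = 0.354). The same held for LHX1 (adjusted p = 0.0781) and OLIG1 (adjusted p = 0.108). Leaving out 1 animal ended it for AHSP (K3, K6, K8 or K9, adjusted p from 0.0505 to 0.139), ALDH3A1 (K3, K8 or K9, adjusted p from 0.138 to 0.176) and CFB (K3, K8 or K9, adjusted p from 0.0874 to 0.134). This was also so for DMBX1 (K3, K8 or K9, adjusted p from 0.0592 to 0.0766), FBXL19 (K3, K8 or K9, adjusted p from 0.108 to 0.129) and IL36A (K3, K8 or K9, adjusted p from 0.117 to 0.157). Others were LHX1 (K3, K8 or K9, adjusted p from 0.0920 to 0.111), OLIG1 (K3, K8 or K9, adjusted p from 0.0541 to 0.0768) and SDK1 (K3 or K9, adjusted p from 0.0513 to 0.0568). Under normexp it was lost for CFB (adjusted p = 0.0997), DMAC2 (adjusted p = 0.410) and EPDR1 (adjusted p = 0.893). Also lost were IMMP2L (adjusted p = 0.0715) and PLEK (adjusted p = 0.684). Other settings ended it for AHSP (quantile normalization, without the K6 day 14 array), ALDH3A1 (all 20 arrays, quantile normalization, the authors' series table, random slide block, 20 arrays with slide set), CFB (array weights, without the K6 day 14 array) and DMBX1 (20 arrays with slide set). It ended likewise for FBXL19 (all 20 arrays, 20 arrays with slide set), HBA (the authors' series table, 20 arrays with slide set), IL36A (all 20 arrays, the authors' series table, 20 arrays with slide set) and LHX1 (all 20 arrays, 20 arrays with slide set). Further such genes were OLIG1 (20 arrays with slide set).

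**Figure D4:**
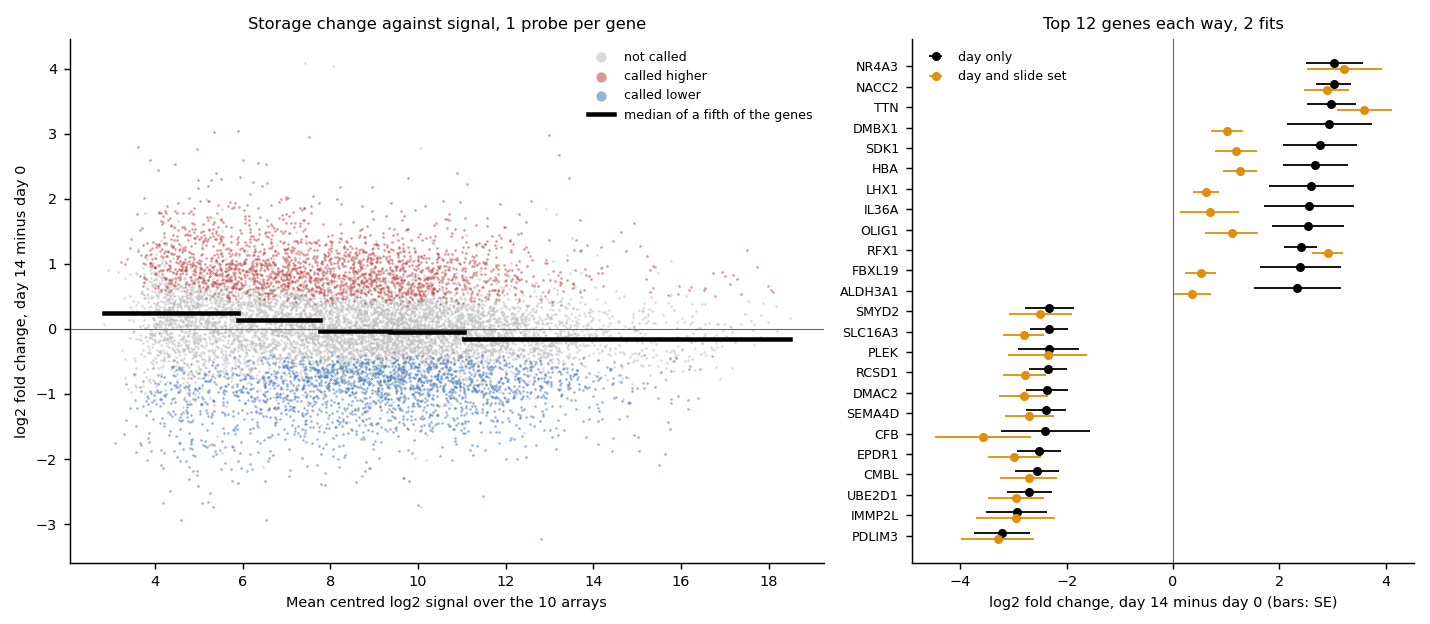
Left, log2 fold change (day 14 minus day 0) of each gene against its mean centred log2 signal in the control arrays, with black bars for the median of each quintile of the genes by signal. The medians run from 0.24 in the dimmest to -0.16 in the brightest quintile. Right, the 12 largest increases and decreases fitted by day alone (black) and with slide set (orange), bars showing SE; 8 of the 12 increases and 0 of the 12 decreases drop below 50% of their log2 value.

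The size and sign of a change were related to signal. From the dimmest to the brightest quintile of genes, the median log2 fold change was 0.24, 0.14, -0.03, -0.04 and -0.16, and the share called higher fell from 23.0% to 11.8%. With normexp these medians ran from 0.98 to -0.37. In the authors' series table they were -0.11, -0.03, -0.07, 0.01 and -0.03. Of the 24 lists with a median beyond 0.30 in either direction, none changed sign under any of the 22 alternative settings they were recomputed in. Among these settings, the replicate block and the fit of all 20 arrays leave the fold changes as they were. Those could not turn a sign. Centring on the spike-in signal, run for counts only, lowered the median of all probes to -0.58. The lists were not recomputed with it, so their signs on that scale are not known.

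Muscle of the 5 treated cows, measured on other samples but on the same slides, went through the same storage. Of the 5907 probes called in control muscle, 5801 were tested in treated muscle. There 5700 had the same sign (98.3%), against 85.1% of all probes tested in both. In treated muscle 3315 were called in the same direction, with 0 called in the opposite one. Across the 14015 probes tested in both, the changes correlated with r = 0.859, a description over probes, which are not independent. Treated muscle had 2517 probes called higher and 1830 called lower. The difference in storage change between treated and control muscle was called for 0 of 14696 probes by limma's interaction test, with 507 at an unadjusted p under 0.05 (3.45%), and with animal as a random block it was also 0, with 555 at an unadjusted p under 0.05. This does not show that the changes were equal.

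**Figure D5:**
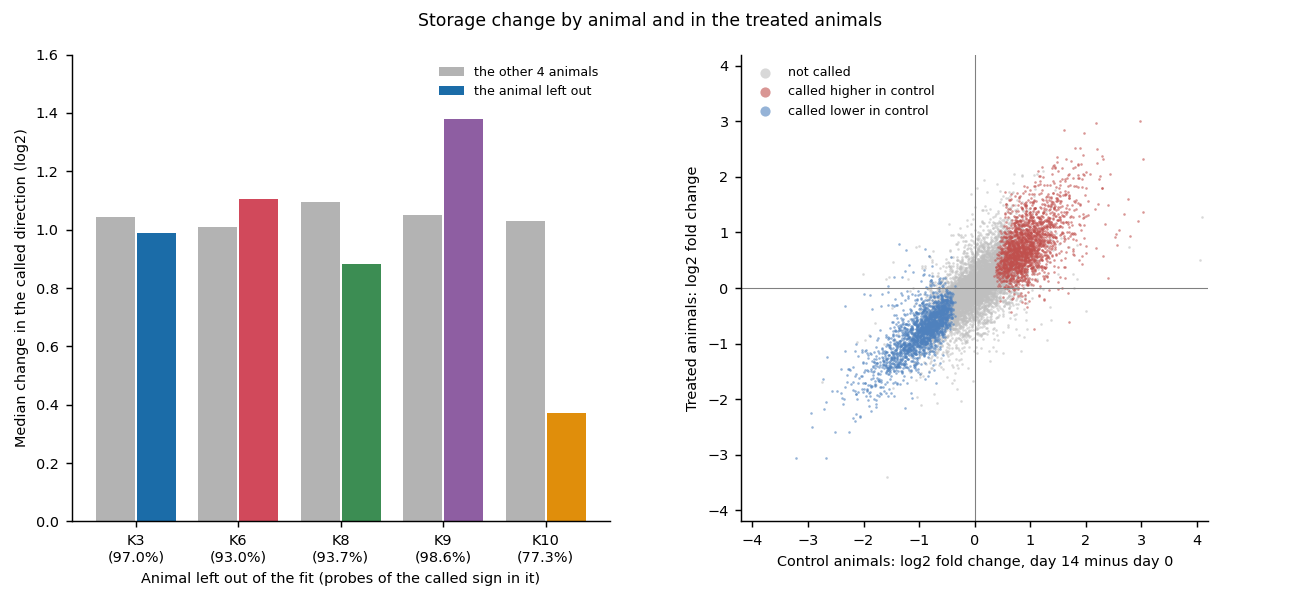
Left, the change of each control animal for probes called from the other 4 animals, given as the median log2 change in the called direction beside that of the other 4; K10 stands at 0.37 and the others between 0.88 and 1.38. Right, log2 fold change of 10397 genes in treated against control muscle, most of which lie in the quadrants of equal sign.

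Treated muscle gave the following values for some of the genes described above. PDLIM3 stood at -3.05, TTN at 3.0 and HNRNPL at 2.32 in treated muscle, against -3.22, 2.98 and 2.31 in control muscle. RYR1 was -1.71, NDUFV3 -1.88, GLRX2 -2.59, PSMA7 2.33 and COX1 0.99. Values were nearer 0 in treated muscle for NR4A3 (1.36, adjusted p = 0.192), NOTCH3 (0.40, adjusted p = 0.386) and DMBX1 (1.20, adjusted p = 0.483). For ACTA1 and MB, level in control muscle, they were 1.80 and 1.24 (adjusted p = 0.00477 and 0.00174). The collagen and extracellular matrix list had 8 members higher and 4 lower in control muscle and 0 higher and 8 lower in treated muscle (medians 0.13 and -0.73), and the smooth muscle and pericyte list had 10 and 1 higher. No probe passed the interaction test, and the differences between lists were not tested.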

How the data were processed

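Gene expression was measured on 1-colour Agilent bovine arrays in 20 neck muscle samples, of which the 10 control samples are described here. Per the labels, RNA came from RNeasy Mini Kit extracts and carried the dye Cy3. Per the file headers, Feature Extraction 9.5.1.1 produced the deposited processed signal, which is an intensity for each spot after background subtraction and detrending. A second, linear intensity per spot stands in the authors' deposited table of all samples; how that was normalized is not given in the sources used here, and R 2.11.1 is named in the submitters' processing notes. The deposited marks of outlier spots and of signal well above background are scores of 0 or 1 and served only as filters. Groups and days came from titles and characteristics; the description field, which contradicts the titles, was not used.

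Outlier spots (449 on the control arrays) were left out, spots of a probe were averaged, and log2 values were centred on each array's 75th percentile, with the mean percentile of the 20 arrays added back. Of 21475 probes, 14348 were tested, those well above background in 5 or more of the 10 arrays, and 7127 were not; 11816 were above background on all 10, and 6 had a missing value. Where a probe was at background on every array of a day, the fold is given as "at least". It was taken against the lowest signal above background or the probe's own signal, whichever was higher on an array. Such a bound holds for this background subtraction only, as normexp turned the sign of EHHADH, H2AZ2, MRPS23, XRN1 and ZAP70. For H2AZ2 the bound equals the fitted fold. Genes were named through RefSeq's bovine gene table (assembly ARS-UCD2.0), by gene number for 9494 probes, accession for 3337 and description or name columns for most others; 287 with conflicting names and 4723 with none stayed unnamed. For each gene the probe of highest mean signal stands in the text. No genome position or sequence was used.

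Days were compared with limma 3.58.1 (R 4.3.3, statmod 1.5.0), with Benjamini-Hochberg adjustment over all tested probes and a threshold of 0.05. Each log2 fold change is given with its standard error (SE). The script was tested on simulated data. The main fit had no block. The fit with the animal as a block is an alternative. It is given beside a gene where it ends or makes a call, and beside the counts of some lists. The numbers pair the samples because each names 1 animal. Day 0 and day 14 deviations of the same animal correlated with r of only 0.32 in K3 and 0.19 in K6. For K8, K9 and K10 the values were -0.06, -0.09 and -0.12. In these animals the day 0 deviations correlated best with the day 14 array of another. K8 went with K10 (0.24), K9 with K8 (0.35) and K10 with K9 (0.25). The pairing, and each change given by animal, therefore rests on the sample numbers alone. For array measures the test was an exact permutation, two-sided. The other alternatives were 1 fit over 20 arrays, other background corrections, normalizations and probe filters, slide, scan session and slide set as blocks, array weights, the mean of a gene's probes and leaving out each animal; those on slide set and on the spike-in signal were chosen after the data were seen. Tables and figures were made in Python 3.11.15 with matplotlib 3.10.9, pandas 2.3.3 and numpy 2.4.6.

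The genes named are the 12 with the largest change among those called in each direction that were above background on at least 3 arrays of each day, up to 4 called members of smallest p of each of 44 gene lists, and 50 genes of muscle, meat ageing, stress and reference use whatever their result, of which 48 were tested; PRKAG3 was too dim and MYH2 was not among the named probes. A few of these genes are not reported here. The comparison, the lists and the genes were chosen with earlier results of these data known. The number of arrays limits the precision of each value.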

Additional observations from a re-analysis of the deposited data

Results flagged for a closer look

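Within a group of 5 arrays, a sample was looked at again where its gap to the nearest other sample, divided by the group's range, exceeded Dixon's 95% critical value of 0.710. Of 418 groups tested, 28 (6.70%) did so, and chance flags about 1 in 20.

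The day 0 array of K10 stood above the other 4 in 6 genes whose signal followed the slide set: ALDH3A1 (6.96 against a median of 4.22, ratio 0.834), DMBX1 (8.58 against a median of 5.35, ratio 0.841), FBXL19 (12.42 against a median of 8.96, ratio 0.860), HBA (14.15 against a median of 11.37, ratio 0.838), LHX1 (7.17 against a median of 4.29, ratio 0.762) and OLIG1 (7.98 against a median of 4.83, ratio 0.724). With these belongs the day 14 array of K6, the lowest for LHX1 (4.49 against a median of 7.98, ratio 0.858). Their values with slide set in the fit are given in the report, and the part of the slides in them was not tested beyond that.

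K10 also stood apart elsewhere. After storage its array signal lay closest to the spike-in signal (-2.91 against a median of -3.39, ratio 0.711). At day 14 it was the highest array for CAST (11.67 against a median of 10.98, ratio 0.735) and the lowest for IER2 (11.25 against a median of 12.03, ratio 0.738) and TNFSF10 (8.38 against a median of 9.13, ratio 0.861), and at day 0 the lowest for JUN (11.67 against a median of 12.29, ratio 0.782) and RFX1 (3.16 against a median of 4.37, ratio 0.810).

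The remaining samples were spread over the other animals. K3 was the highest array of day 0 for PRDX4 (12.29 against a median of 11.50, ratio 0.75), RIPK3 (7.80 against a median of 7.13, ratio 0.798) and UBE2D1 (12.05 against a median of 11.27, ratio 0.753). K3 was the lowest array of day 0 for NEB (11.52 against a median of 13.20, ratio 0.782). K6 was the highest array of day 0 for MYH7 (17.89 against a median of 17.62, ratio 0.786). K6 was the highest array of day 14 for COL1A1 (15.02 against a median of 12.64, ratio 0.719) and XAF1 (9.77 against a median of 9.01, ratio 0.725). K6 was the lowest array of day 14 for KLF9 (11.80 against a median of 12.39, ratio 0.849). K8 was the highest array of day 0 for CAST (12.39 against a median of 11.77, ratio 0.772). K8 was the lowest array of day 0 for AMPD1 (12.92 against a median of 14.25, ratio 0.914), HLF (11.88 against a median of 12.62, ratio 0.735) and SLC16A3 (7.41 against a median of 7.73, ratio 0.864). K9 was the highest array of day 14 for B2M (15.46 against a median of 15.04, ratio 0.741). K9 was the lowest array of day 14 for EIF2S1 (8.16 against a median of 8.78, ratio 0.774) and MEF2D (9.46 against a median of 10.96, ratio 0.768).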

How the results depend on the processing

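The number of probes called changed by more than 1.5 times in these settings, against 3210 higher and 2697 lower: without a filter on dim probes, 5884 were higher; with normexp background correction, 1550 were lower; with the slide as a fixed block, where slide 6 alone holds both days, 475 were higher and 179 lower; centred on the spike-in signal, 683 were higher and 6692 lower. Leaving out 1 animal at a time gave 1787 (without K9) to 3540 (without K10) higher and 1526 to 2933 lower. The replicate block, pairing the days of an animal, gave 3025 and 2420. With signs turned within animals, the pairing of the array measures left their values at -0.93, 0.29 and -0.65, with an exact permutation p of 0.0625, the smallest possible.

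Of 209 named genes, 175 were called. The fixed slide block ended 149 of these calls, the slide set block 24, the replicate block 6 and leaving out 1 animal 45; 103 kept their call in every setting run for them, leaving aside the fixed slide block and the blocks of slide set, the latter chosen after the data were seen. With normexp, 21 calls were lost, and the sign turned for ARNT (0.11), EHHADH (0.027), H2AZ1 (0.088), H2AZ2 (0.24), HPRT1 (0.31), MRPS23 (0.70), NFIL3 (0.12), SRSF3 (0.14), TSC22D3 (0.74), XRN1 (0.52) and ZAP70 (0.82); averaging its probes turned ARNT (0.13). The cause was not tested.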
